A study of Mus musculus with 72 samples.

Results

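The haemoglobin and erythroid genes described here are Hba-a1, Hbb-b1, Alas2, Slc4a1, Epb4.2, Klf1 and Tfrc, followed in liver, kidney, heart and brain of ageing mice fed coenzyme Q10. They were chosen by name: every probe set whose platform gene symbol, current or older, is 1 of these 7 genes was taken, including probe sets that list several haemoglobin genes. That gave 18 of the 45101 probe sets on the array. The mice were females of the SAMP1 strain (senescence accelerated mouse prone 1), an inbred line bred for early ageing, and each of 72 whole-tissue RNA samples was hybridised to 1 Affymetrix mouse array. From 4 weeks of age the mice received QH2 (the reduced form of coenzyme Q10) or Q10 (the oxidised form), each at about 500 mg per kg body weight per day, or a control diet without added coenzyme Q10. Tissues were taken after 14 or 6 months on the diet, at 15 or 7 months of age. Each of the 24 combinations of tissue, diet and duration has 3 arrays, which the design text ascribes to separate mice. SAMP1 is a strain with no outside control here, the 14-month and 6-month mice differ in age as well as in time on diet, and whether blood was flushed from the organs is not given in the sources used here.

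Red cells carry oxygen on haemoglobin, a tetramer of 2 alpha and 2 beta globin chains with a haem group each. In the adult mouse they form in bone marrow and spleen, where the transcription factors Gata1 and Klf1 switch on the globin genes, the haem pathway and the membrane skeleton. Circulating reticulocytes, the youngest red cells, still hold globin and Alas2 RNA, so any organ sampled with its blood contains some of it. In bulk tissue a difference in the number of such cells and a difference in the RNA of each cell cannot be told apart.

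Hba-a1 (chr11:32283672-32284486, GRCm38.p6) encodes adult alpha globin and shares 3 of its 4 probe sets with its near-identical copy Hba-a2 (chr11:32296492-32297310), so the 2 genes are read together. Hbb-b1, adult beta globin, has 1 probe set, which the platform also assigns to other beta globin genes. These are Hbb-b2 and, of another haplotype, Hbb-bs (chr7:103826523-103827928) and Hbb-bt (chr7:103812524-103813923). Alas2 (chrX:150547417-150570622) is the erythroid form of 5-aminolaevulinate synthase, the first enzyme of haem synthesis, with 1 probe set. Slc4a1 (chr11:102348820-102365281) encodes band 3, the chloride and bicarbonate exchanger of the red cell membrane, which a shorter form also serves in acid-secreting cells of the kidney collecting duct. It has 3 probe sets. Epb4.2, now Epb42 (chr2:121017891-121036877), encodes protein 4.2, which ties band 3 to the membrane skeleton, and has 2 probe sets. Klf1 (chr8:84901982-84905291) has 1 probe set. Tfrc (chr16:32608896-32632794) encodes the transferrin receptor, through which red cell precursors and all dividing cells take up iron. It has 6 probe sets, of which 3 are control probe sets for its 5′ end, middle and 3′ end.

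The promoter windows of RefSeq (GRCm38.p6, 250 bases before to 50 after the start) are shown for the globins, Alas2 and Klf1, because the globins and Alas2 are classic targets of Gata1 and Klf1, and for Tfrc as a contrast. Capitals mark AGATAA or TGATAA, which Gata factors bind, and CCNCNCCC, the CACCC type motif that Klf1 binds. Both strands were searched, so runs of capitals may also be the reverse complement of a motif.
Hba-a1 chr11:32283422-32283721 plus strand: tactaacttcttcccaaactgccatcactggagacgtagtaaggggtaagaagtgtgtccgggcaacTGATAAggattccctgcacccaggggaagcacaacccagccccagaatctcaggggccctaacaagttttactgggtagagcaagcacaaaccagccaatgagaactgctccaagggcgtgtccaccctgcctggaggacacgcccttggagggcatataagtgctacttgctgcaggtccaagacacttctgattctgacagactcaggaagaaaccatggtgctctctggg
Hbb-bs chr7:103827879-103828178 minus strand: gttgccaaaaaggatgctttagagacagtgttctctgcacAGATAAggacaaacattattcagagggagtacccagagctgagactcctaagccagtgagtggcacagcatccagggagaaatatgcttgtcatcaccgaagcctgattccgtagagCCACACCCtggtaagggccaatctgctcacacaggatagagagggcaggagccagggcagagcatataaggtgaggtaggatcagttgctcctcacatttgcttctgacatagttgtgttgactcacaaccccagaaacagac
Alas2 chrX:150547167-150547466 plus strand: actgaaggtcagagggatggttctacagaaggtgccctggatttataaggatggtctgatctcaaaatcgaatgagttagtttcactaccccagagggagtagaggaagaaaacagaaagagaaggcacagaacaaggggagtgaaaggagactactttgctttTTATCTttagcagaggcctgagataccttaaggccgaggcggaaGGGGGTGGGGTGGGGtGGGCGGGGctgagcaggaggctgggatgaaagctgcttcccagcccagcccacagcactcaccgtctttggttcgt
Klf1 chr8:84901732-84902031 plus strand: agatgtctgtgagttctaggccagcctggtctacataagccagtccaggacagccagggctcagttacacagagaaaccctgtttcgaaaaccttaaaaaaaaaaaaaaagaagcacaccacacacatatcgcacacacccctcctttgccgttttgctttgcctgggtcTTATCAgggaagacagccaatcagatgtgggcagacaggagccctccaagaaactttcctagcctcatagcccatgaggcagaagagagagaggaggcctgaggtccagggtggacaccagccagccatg
Tfrc chr16:32608646-32608945 plus strand: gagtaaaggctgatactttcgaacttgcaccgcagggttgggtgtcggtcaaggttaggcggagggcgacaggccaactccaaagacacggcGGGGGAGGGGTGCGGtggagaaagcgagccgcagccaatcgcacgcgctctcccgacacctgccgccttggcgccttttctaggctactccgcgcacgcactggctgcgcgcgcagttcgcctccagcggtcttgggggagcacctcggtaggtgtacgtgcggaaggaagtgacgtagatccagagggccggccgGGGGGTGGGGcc

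The Hba-a1 and Klf1 windows each held 1 TGATAA, the Hbb-bs window 1 AGATAA and 1 CCNCNCCC, and the Alas2 window 1 AGATAA and 4 overlapping or adjoining CCNCNCCC matches. The Tfrc window held neither GATA motif but 5 CCNCNCCC matches, in separate runs within which they overlap. Another Tfrc window (chr16:32608872-32609171), not shown, held 3 CCNCNCCC matches and neither GATA motif. Epb42 (chr2:121036828-121037127) had 1 AGATAA. Among 32851 windows of the same length, 11.2% held AGATAA, 9.05% TGATAA, 18.6% either, and 49.5% CCNCNCCC, so such matches are common and describe only these letters. Windows were matched by symbol for 6 of the 7 genes, Hbb-b1 through Hbb-bs and Hbb-bt, and no window of Slc4a1 is shown.

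The tissues matched their labels: the summed signal of 8 hepatocyte markers was 64521 to 105577 in liver arrays, that of 8 heart muscle markers was 54056 to 102740 in hearts and at most 872 elsewhere, and kidney tubule and brain markers were likewise highest in their own tissue (hepatocyte markers reached 13265 in other tissues). The arrays are not levelled, and mean signals were 143 to 281 for brain arrays, 109 to 281 for heart arrays, 133 to 264 for kidney arrays and 85.8 to 174 for liver arrays. The ratio of 3′ to 5′ signal of Actb, a gauge of RNA integrity that is higher in degraded RNA, was widest in liver arrays (1.59 to 7.36), against 1.66 to 1.95 in brain, 1.68 to 2.22 in heart and 1.64 to 3.37 in kidney arrays. Values below are signals made comparable by quantile normalisation within a tissue unless called deposited. Where groups of 3 arrays are said not to overlap, this describes the arrays and is no test. The share of all probe sets whose groups did not overlap is given only for Q10 against control in 14-month hearts (16.8%). Of the 18 member probe sets, 14 were bright enough to be tested in heart, 12 each in liver and kidney, and 10 in brain. Neither Epb4.2 probe set passed the brightness filter anywhere, with deposited signals between 0.2 and 19.6.

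The same probe set was set against itself across tissues, on all 72 arrays normalised together. Alpha globin, read by the dimmer Hba-a1 probe set 1417714_x_at, had its highest median signal in heart (3051), followed by kidney (1277), liver (650.2) and brain (431). The bright Hba-a1 probe sets gave other orders, with medians of 10251 in kidney, 9925.5 in brain, 9668 in heart and 7294 in liver for 1428361_x_at. For 1452757_s_at they were 9470 in both kidney and heart, 8056 in brain and 6065 in liver. For 1417714_x_at the heart arrays spanned 2354 to 7109 and the brain arrays 230 to 3556. Single arrays of different tissues therefore overlapped although the tissue means differed. The log2 difference of 1417714_x_at was 2.63 ± 0.18 (SE) for heart against brain, with an adjusted p of 8.37e-20 by limma. For liver against brain it was 0.51 ± 0.18, adjusted p = 0.00825. Between tissues most of the array differs: 85.9% of probe sets were called for heart against brain, 85.7% for liver against brain, 81.7% for kidney against brain, 80.8% for liver against heart, 78.4% for kidney against heart and 71.7% for liver against kidney. Deposited medians of 1417714_x_at kept the order, at 2919 in heart, 1322 in kidney, 535 in liver and 522 in brain. As deposited the bright probe sets also had their highest median in heart, so their orders depend on scaling. For 1428361_x_at these medians were 11231 in heart, 9535 in kidney, 7961 in brain and 7071 in liver. For 1452757_s_at they were 10949, 8247, 6648 and 5595 in the same tissues.

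Beta globin followed the same lead, with a median Hbb-b1 signal of 8932 in heart, 7319 in kidney, 6937 in brain and 5097 in liver, and kidney and brain did not differ past the threshold (0.06 ± 0.08, adjusted p = 0.457). Alas2 was also highest in heart, where its median was 734, against 207 in liver, 136 in kidney and 38.6 in brain. Heart exceeded brain by 4.19 ± 0.20 on the log2 scale, the widest gap of the 12 members tested between these tissues. The places of liver and kidney depend on scaling, since the deposited Alas2 medians were 94.0 in liver and 143 in kidney.

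Band 3 had another order. Slc4a1 (1416464_at) had a median of 397 in kidney, 55 in heart, 40 in liver and 10.8 in brain. All 18 kidney arrays lay between 315 and 587, a narrow band beside the 22.3 to 540.3 of heart arrays, and liver was lower than kidney by a log2 difference of -3.33 ± 0.27 (adjusted p = 1.09e-16). Klf1 gave a low signal everywhere, with jointly normalised medians of 10.7 in brain, 24.8 in heart, 43.3 in kidney and 103 in liver, and its deposited medians of 17.7 in heart and 17.8 in brain put these 2 level. Tfrc (1452661_at) had medians of 529.7 in heart, 425 in brain, 407 in kidney and 227 in liver. Kidney and brain did not differ past the threshold for Tfrc (-0.08 ± 0.12, adjusted p = 0.534), and the deposited medians put brain (565) above heart (444).

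**Figure D1:**
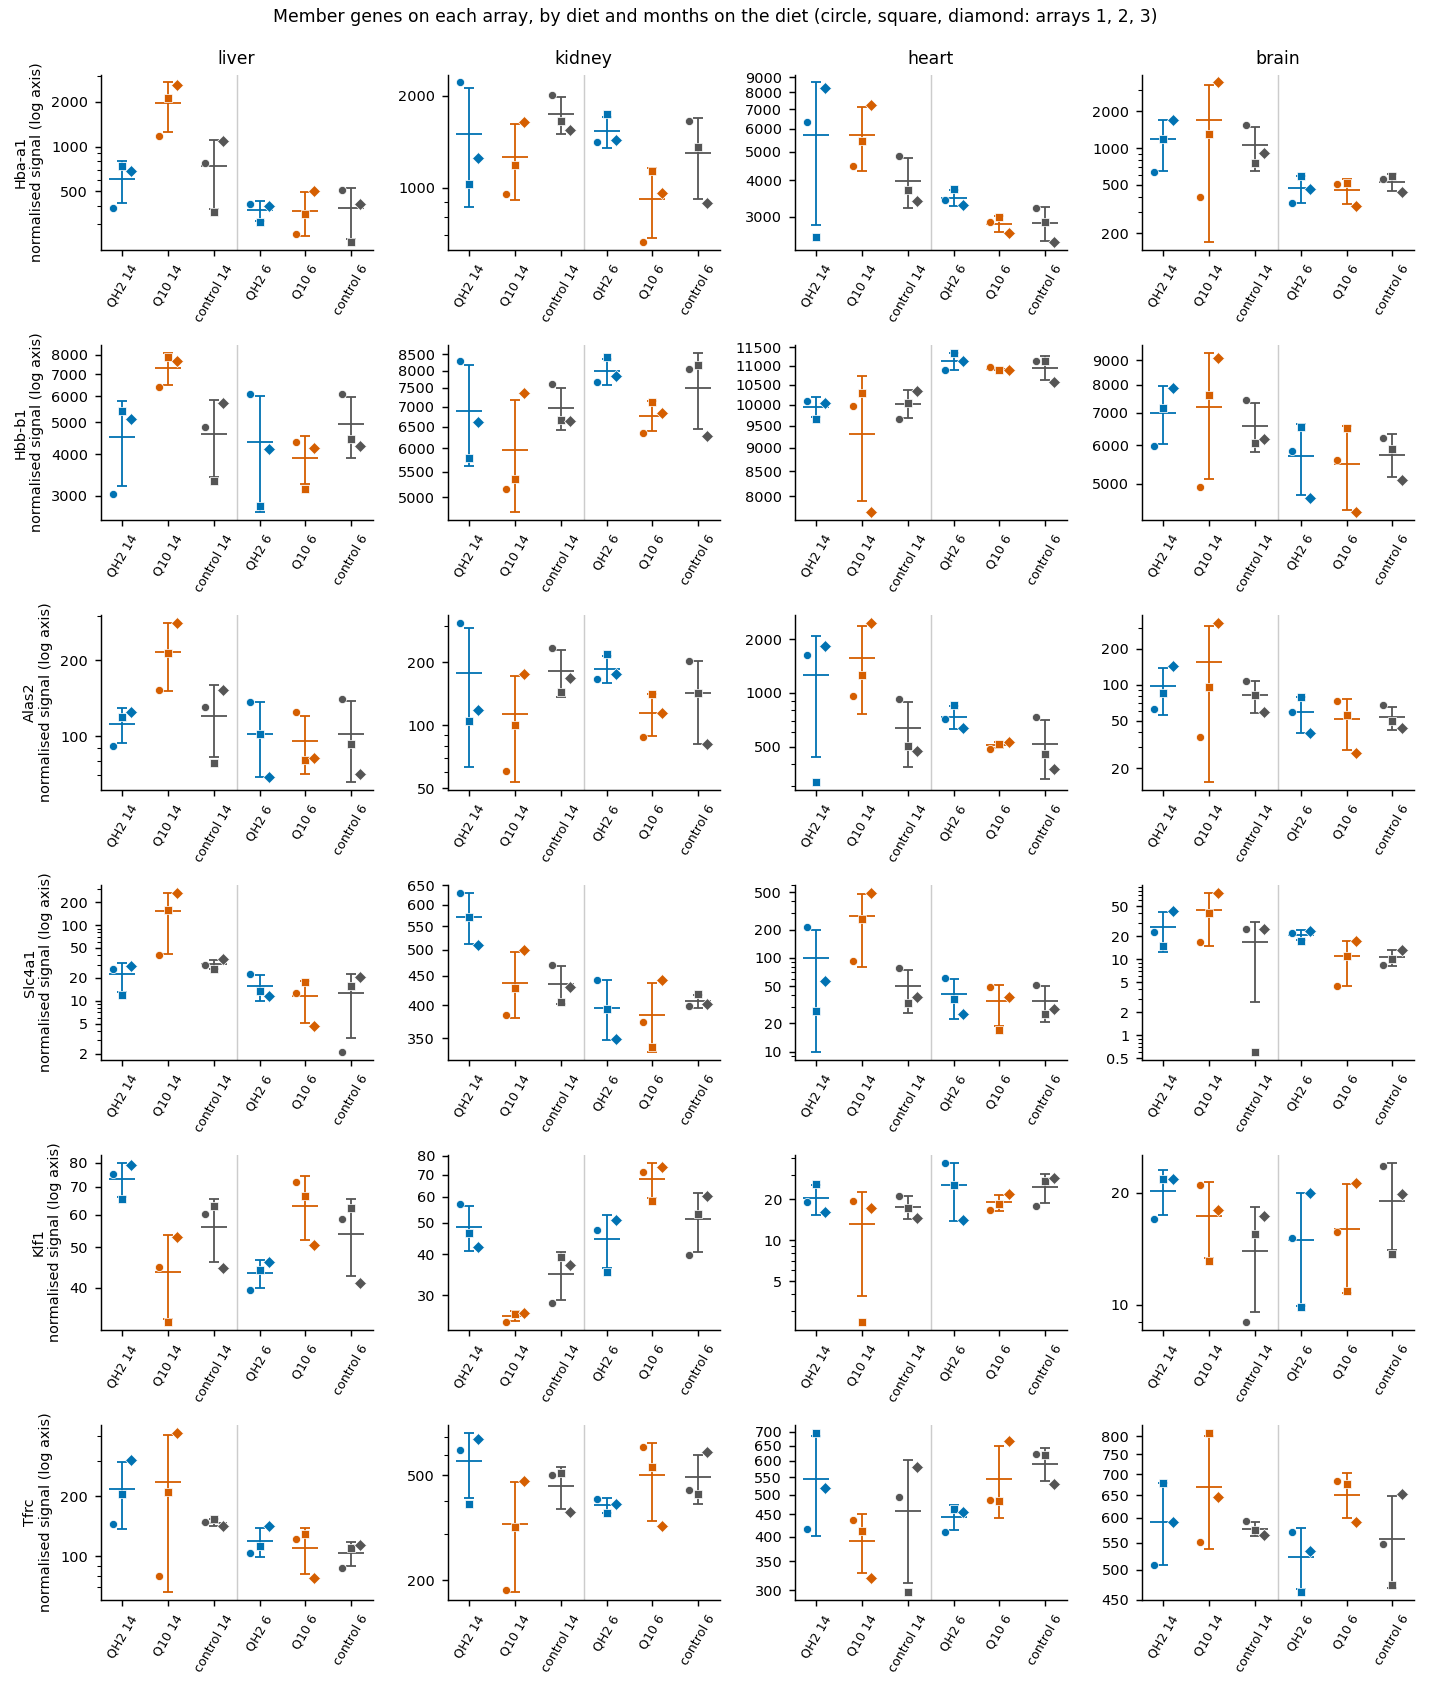
Normalised signal (log axis) of the member genes on every array, by tissue, with QH2 in blue, Q10 in orange and control in grey, the 14-month groups left of the 6-month groups. Circles, squares and diamonds are arrays 1, 2 and 3, and bars are mean ± SD with the lower end shortened where it would come near 0. The Q10 14-month livers hold the highest Hba-a1, Alas2 and Slc4a1 signals of that tissue, and Slc4a1 is high on every kidney array.

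In livers after 14 months, 1 alpha globin and 1 band 3 probe set were called higher on Q10 than on the control diet. Hba-a1 (1417714_x_at) had signals of 1185.5, 2118 and 2619 in the Q10 livers, against 778, 366 and 1097 in the control livers. The lowest Q10 liver was above the highest control liver, by little. The log2 difference was 1.46 ± 0.38 (SE, n = 3 each) with an adjusted p of 0.0288 by limma. Slc4a1 (1434502_x_at) had 24.1, 129 and 195 in Q10 livers, against 12.6, 0.4 and 13 in control livers, a log2 difference of 3.76 ± 1.01 (adjusted p = 0.0344). These were 2 of the 12 members tested, and 6.21% of all tested probe sets were called. That Slc4a1 probe set passes the brightness filter in liver only through the Q10 14-month arrays, so its call had to be a rise and supports nothing here. Without it 1 of 11 members was called.

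The other bright probe sets of the globins, and those of Alas2 and Slc4a1, pointed the same way in these livers without passing. The second Slc4a1 probe set (1416464_at) read 40, 157 and 267 in Q10 livers, against 29.8, 26.6 and 35.3 in control livers (log2 difference 1.94 ± 0.68, adjusted p = 0.0960). Alas2 read 152, 213 and 282 in Q10 livers, against 131, 78.2 and 153 in control livers (0.84 ± 0.31, adjusted p = 0.110), and here the groups overlapped. Hbb-b1 read 6391, 7895 and 7674 in Q10 livers, against 4853, 3314 and 5714 in control livers (0.69 ± 0.27, adjusted p = 0.129). The bright Hba-a1 probe sets 1452757_s_at and 1428361_x_at differed by 0.49 and 0.27 (adjusted p = 0.230 and 0.504). Not of that direction were Klf1, at -0.36 (adjusted p = 0.381), and the very dim Hba-a1 probe set 1453574_at, at -0.08. In each of Hba-a1, Slc4a1 and Alas2 the Q10 arrays 2 and 3 were the highest of the tissue and array 1 stood nearer to the controls.

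Both calls rest on few arrays. Hba-a1 lost its call without control array 1 (adjusted p = 0.0628), control array 2 (0.162), Q10 array 2 (0.122) or Q10 array 3 (0.133), with log2 differences from 1.02 to 1.81. Slc4a1 lost its call without control array 2 (adjusted p = 0.177), Q10 array 2 (0.175) or Q10 array 3 (0.160), with differences from 2.65 to 4.65. Without both Q10 arrays 2 and 3 a single Q10 liver is left, assumed to vary like the other groups, here and wherever both are left out below. The differences were then 0.81 and 1.98. With the Actb ratio as a covariate they were 0.66 and 3.67 (adjusted p = 0.946 and 0.683), and 0 of all 27024 probe sets were called.

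QH2 did not share this picture in the values, although the direct test against control has wide intervals. Hba-a1 read 388, 743 and 688 in QH2 livers after 14 months, against the control values above, a log2 difference of -0.22 with a 95% interval from -1.01 to 0.58. Slc4a1 (1416464_at) differed by -0.53 (-1.94 to 0.89) and Alas2 by -0.07 (-0.72 to 0.57). None of the 27024 probe sets tested in liver was called by limma in this comparison, and none of its 12 members had an unadjusted p under 0.05.

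Set directly against Q10 livers, QH2 livers had lower signals of 1 alpha globin and both band 3 probe sets. The log2 difference was -1.68 ± 0.38 for Hba-a1 (adjusted p = 0.0108), -2.46 ± 0.68 for Slc4a1 1416464_at (adjusted p = 0.0272) and -3.81 ± 1.01 for Slc4a1 1434502_x_at (adjusted p = 0.0237). Slc4a1 1416464_at read 26.5, 11.8 and 28.5 in QH2 livers, all under the lowest Q10 liver. Klf1 went the other way, at 75.2, 65.6 and 78.9 in QH2 livers, against 44.9, 33.0 and 52.9 in Q10 livers (0.76 ± 0.23, adjusted p = 0.0408). These were 4 of 12 members, or 3 of 11 without Slc4a1 1434502_x_at, whose direction the filter fixed here too, beside 9.74% of all tested probe sets. Alas2 (-0.91 ± 0.31, adjusted p = 0.0664) and Hbb-b1 (-0.74, adjusted p = 0.0868) did not pass. The Klf1 difference in the deposited signals was 0.20 (adjusted p = 0.866). All 4 calls were lost with the Actb covariate, where 0 of all 27024 probe sets were called. They were also lost without Q10 arrays 2 and 3, which leaves a single Q10 liver.

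Leaving out 1 array ended these calls as follows. Hba-a1 lost its call without Q10 array 3 (-1.44, adjusted p = 0.0619) or QH2 array 1 (-1.39, adjusted p = 0.0627). Slc4a1 1416464_at and Klf1 each lost it without any array except Q10 array 1, with differences from -3.24 to -1.88 and from 0.57 to 0.91. Slc4a1 1434502_x_at lost it without Q10 array 2, Q10 array 3, QH2 array 2 or QH2 array 3 (-4.70 to -2.70).

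Markers of other cells moved with the Q10 livers, where 6.21% of all tested probe sets were called against control. The summed deposited signal of 13 macrophage markers was 6552 to 22629 in Q10 livers after 14 months, against 1042 to 2469 in control livers, and 12 of the 13 passed the test upward (median log2 difference 2.93, beside -0.10 over all tested probe sets). Neutrophil and granule precursor markers summed to 729 to 17753 in Q10 livers, against 435 to 1153.5 in control livers, with 6 of 10 tested higher. B cell markers summed to 230.5 to 3156 in Q10 livers, against 92.3 to 119 in control livers, with 4 of 7 higher, and 2 of 5 T cell markers were higher. Platelet and megakaryocyte markers (345.5 to 2261 in Q10 livers, against 178 to 194 in control livers, 3 of 9 higher) and cell division genes (300.7 to 2576, against 105 to 199.5, 6 of 10 higher) rose as well. The Actb ratio averaged 2.21 in these Q10 livers (1.59 to 3.05), 3.83 in control livers and 5.35 (3.67 to 7.36) in QH2 livers of the same duration. The brightness filter was not checked without the Q10 14-month arrays for the genes of any list. A listed gene that passes it only through those arrays, in any tissue, could only be called higher on them. Counts of listed genes called higher, here and below, may include such genes. The part of these cells and of RNA integrity in the globin result was not tested.

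Other genes of red cell formation were called in small numbers for Q10 against control in these livers, beside 6.21% of all tested probe sets. Of 11 tested erythroid transcription factors and receptors 1 rose, Lmo2, a partner of Gata1 in blood precursors (1.01 ± 0.28, adjusted p = 0.0412), while Myb, active in early blood precursors, differed by 3.09 (adjusted p = 0.0567) and Gata1 by 0.05 (adjusted p = 0.981). Of 15 tested late red cell genes 3 rose: Car2, a carbonic anhydrase of red cells and other cells (1.55, adjusted p = 0.0184), and Rsad2 and Isg20, both known as interferon-induced genes as well (1.03, adjusted p = 0.0247, and 1.56, adjusted p = 0.0496). Of 11 tested haem synthesis genes none rose and 1 fell, Alad, the second enzyme of the pathway (-0.62, adjusted p = 0.0473). None of 10 red cell membrane genes, 18 iron handling genes, 11 oxygen sensing genes or 2 minor globins passed. Of 9 genes of haemoglobin and haem clearance 1 rose: Hmox1, which degrades haem, read 71.7, 136 and 210 in Q10 livers, against 41.2, 28.7 and 42.8 in control livers (1.75 ± 0.31, adjusted p = 0.00244). Hmox1 was also lower in QH2 than in Q10 livers (-1.90, adjusted p = 0.00138), as was Spic, a transcription factor of iron-recycling macrophages (-3.58), while Alad was higher there (0.90, adjusted p = 0.00532).

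Between durations on Q10, probe sets of Hba-a1, Hbb-b1, Alas2 and Slc4a1 passed in liver. After 14 months Hba-a1 read 1185.5, 2118 and 2619 in Q10 livers, against 260, 352 and 502.5 after 6 months, with no overlap (log2 difference 2.38 ± 0.38, adjusted p = 0.00115). Slc4a1 1416464_at read 40, 157 and 267 after 14 months, against 12.7, 17.7 and 4.7 after 6 months (3.41 ± 0.68, adjusted p = 0.00384). Alas2 read 152, 213 and 282 after 14 months, against 124.5, 80.1 and 82.1 after 6 months (1.15 ± 0.31, adjusted p = 0.0204). In all, 7 of the 12 tested members were called higher, or 6 of 11 without Slc4a1 1434502_x_at, whose direction the filter fixed, beside 12.5% of probe sets called and 5.88% called higher. The 7 were these 3, Slc4a1 1434502_x_at (3.70 ± 1.01, adjusted p = 0.0227), Hbb-b1 (0.92 ± 0.27, adjusted p = 0.0303) and the bright Hba-a1 probe sets 1452757_s_at (0.93 ± 0.23, adjusted p = 0.0145) and 1428361_x_at (0.67 ± 0.21, adjusted p = 0.0426).

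Age, time on diet and any batch between the durations cannot be told apart in this comparison. Hba-a1 1417714_x_at and Slc4a1 1416464_at kept their calls whichever array was left out (lowest differences 2.14 and 2.83). Hba-a1 1428361_x_at, Hbb-b1 and Slc4a1 1434502_x_at were each lost without Q10 array 2 or 3 of the 14-month group or any 1 array of the 6-month group. Alas2 was lost without array 2 or 3 of either group (0.94 to 1.14, adjusted p = 0.0649 to 0.0980), and 1452757_s_at without 6-month array 2 (0.83, adjusted p = 0.0598) or 14-month array 3 (0.88, adjusted p = 0.0544). Without Q10 14-month arrays 2 and 3 none of the 7 passed, Hba-a1 then differing by 1.72 (adjusted p = 0.125). With the Actb covariate only Hba-a1 1417714_x_at did (1.77, adjusted p = 0.0459).

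On the other diets no member passed between durations in liver. On control diet Hba-a1 read 778, 366 and 1097 after 14 months, against 512, 229 and 412 after 6 months (0.90, adjusted p = 0.173), with 2 of 12 members under an unadjusted p of 0.05 and 7.36% of all probe sets called. On QH2 it read 388, 743 and 688, against 415, 309.8 and 397 (0.65, adjusted p = 0.443), with 1 of 12 under an unadjusted 0.05 and 2.35% called. The test of whether the Q10 effect itself changed with duration gave 1.49 ± 0.54 for Hba-a1 (adjusted p = 0.156) and 1.81 for Slc4a1 (adjusted p = 0.350), and did not pass for any member, beside 2.33% of all probe sets. In Q10 livers 12.5% of all probe sets were called between durations, with 5.88% called higher. Among the lists, 1 of 11 transcription factors rose and 3 of 11 haem synthesis genes fell. Of 10 membrane genes 1 rose (Ermap, a blood group protein, 2.61) and 2 fell (Aqp1, the red cell water channel that other cells also make, -0.94, and Gypc, -0.81). Of 15 late red cell genes 3 rose (Isg20 1.75, Rsad2 1.11, Car2 1.42) and 1 fell (Fbxo9, -0.84). Macrophage markers (12 of 13), neutrophil (7 of 10), B cell (4 of 7) and cell division genes (8 of 10) rose between the same livers.

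**Figure D2:**
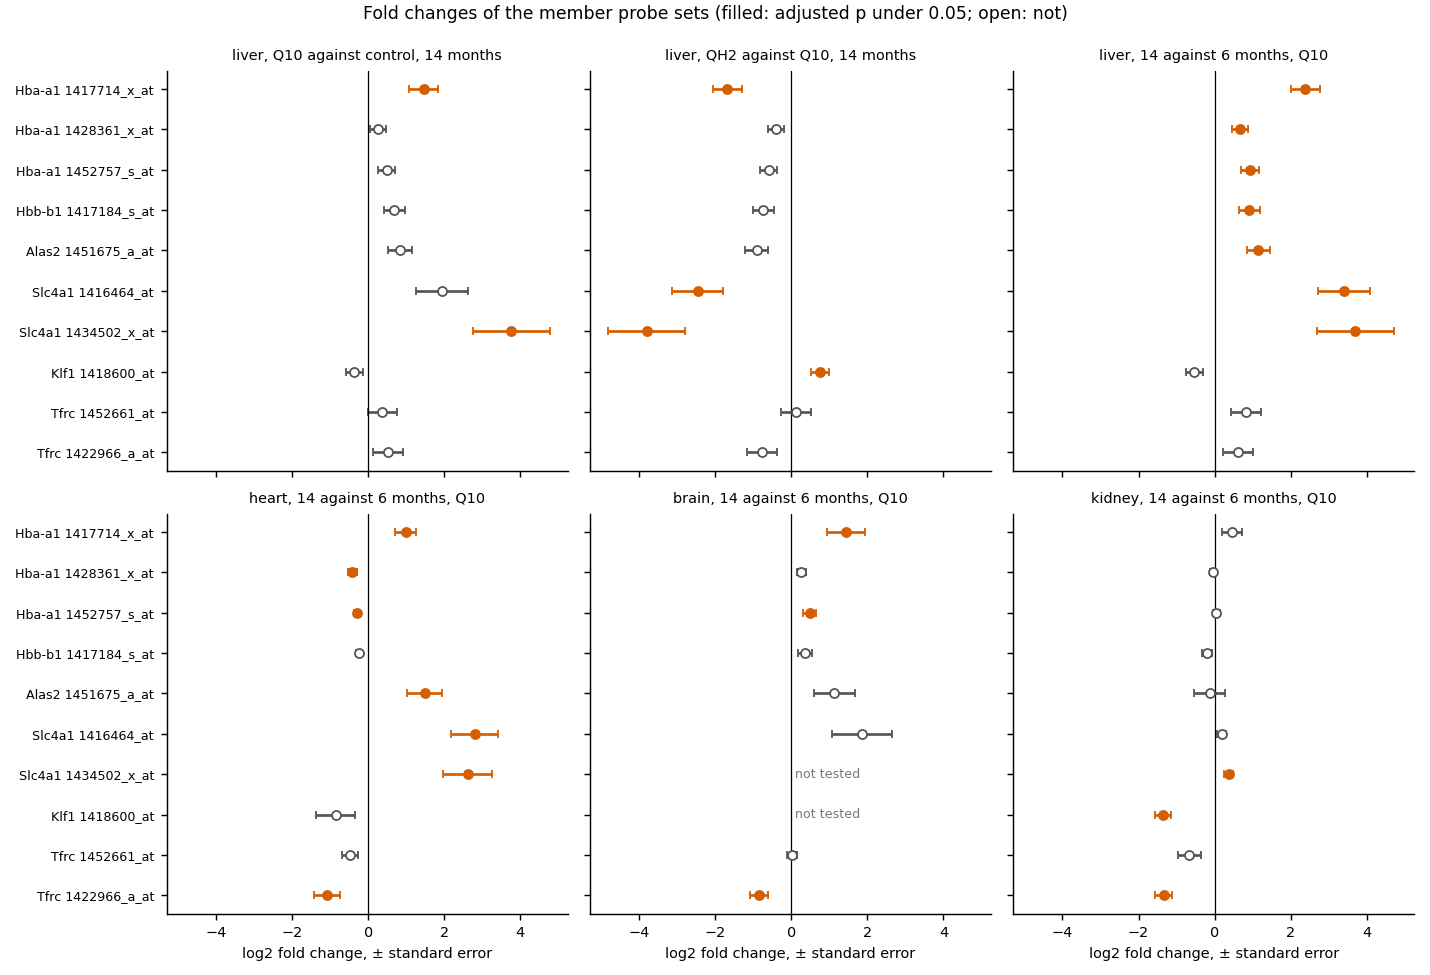
Log2 fold changes (horizontal axis) of 10 member probe sets in 6 comparisons, 1 per panel, with bars of ± SE. Filled orange points passed the test and open points did not. The largest differences are those of Slc4a1 in livers and hearts.

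In hearts, no diet difference of any member passed after 14 months, and none of the 27024 probe sets tested in heart was called for Q10 against control. Still, Slc4a1 1416464_at read 91.7, 260.1 and 495.5 in Q10 hearts, against 77.7, 33.4 and 38.6 in control hearts, so the lowest Q10 heart was above the highest control heart. Its log2 difference was 2.27 ± 0.62 (adjusted p = 0.172), that of Slc4a1 1434502_x_at 2.72 ± 0.65 (adjusted p = 0.112) and that of Alas2 1.25 ± 0.46 (adjusted p = 0.343), and each of the 3 had groups that did not overlap, as did the 3′ control probe set of Tfrc (-0.55) and 16.8% of all probe sets. Over the 3 diet comparisons 8 of 42 member tests had an unadjusted p under 0.05. On the deposited signals 3 members passed for Q10 against control. QH2 hearts were the most uneven: Alas2 read 1630, 317 and 1840, with QH2 arrays 1 and 3 among the highest hearts and array 2 the lowest of all 18.

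Between durations on Q10, 8 of the 14 tested heart members passed, 4 up and 4 down, beside 10.6% of all probe sets. Slc4a1 1416464_at rose to 91.7, 260.1 and 495.5 after 14 months, against 48.8, 17 and 38.7 after 6 months (2.80 ± 0.62, adjusted p = 0.00673), and 1434502_x_at rose by 2.62 ± 0.65 (adjusted p = 0.0126). Alas2 read 956.5, 1262 and 2476 after 14 months, against 487, 520.2 and 529 after 6 months (1.49 ± 0.46, adjusted p = 0.0418). Hba-a1 1417714_x_at read 4465, 5442 and 7268, against 2881, 2987 and 2636 (0.99 ± 0.27, adjusted p = 0.0229). By these probe sets every 14-month heart was above every 6-month heart on Q10. Of the 6 Tfrc probe sets tested in heart 2 fell, with 1422966_a_at at 62.8, 43.7 and 36.1 after 14 months, against 70.3, 94.4 and 146 after 6 months (-1.08 ± 0.33, adjusted p = 0.0414), and its 3′ control probe set at 24.2, 19.9 and 24.1, against 46.0, 54.5 and 60.7 (-1.20 ± 0.38, adjusted p = 0.0451). The brightest, 1452661_at, read 437, 413 and 321 after 14 months, against 485.5, 484 and 666 after 6 months, and was not called (-0.48, adjusted p = 0.152).

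Slc4a1 1416464_at kept its call whichever array was left out (2.24 to 3.45). Slc4a1 1434502_x_at lost it without 14-month array 3 (2.06, adjusted p = 0.0803) or 6-month array 2 (2.22, adjusted p = 0.0617), Hba-a1 1417714_x_at without array 2 or 3 of the 14-month or array 1 or 3 of the 6-month group (0.80 to 1.01), and Alas2 without any array except 14-month array 1. Tfrc 1422966_a_at lost it without array 2 or 3 of either group (-1.11 to -0.80), and the 3′ control probe set without any 1 array. Without 14-month arrays 2 and 3 none of the 8 passed, and Slc4a1 1416464_at then differed by 1.5 and Alas2 by 0.90.

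The remaining 2 calls are the bright alpha globin probe sets, which ran against the dimmer one. Hba-a1 1452757_s_at read 9920, 9866 and 8376 after 14 months on Q10, against 11478, 11357 and 11741 after 6 months (-0.30 ± 0.06, adjusted p = 0.0049), and 1428361_x_at read 10520.0, 10623 and 7520, against 13176, 11424 and 13176 (-0.41 ± 0.11, adjusted p = 0.0195). The call of 1428361_x_at was lost without 14-month array 3 (-0.25, adjusted p = 0.117), 6-month array 1 (-0.38, adjusted p = 0.0726) or 6-month array 3 (-0.38, adjusted p = 0.0822). In the deposited signals both differences were positive, at 0.23 (adjusted p = 0.0769) and 0.13 (adjusted p = 0.344), while the dimmer probe set differed by 1.80. Probe set 1428361_x_at had a median rank of 19.5 among the probe sets of a heart array, counted from the brightest, and 1417714_x_at a median rank of 418. The probe set 1427866_x_at of Hbb-b2, a beta globin outside the 7 genes, was dimmer too and read 564, 554.5 and 1149 after 14 months, against 275, 291.5 and 327 after 6 months on Q10, in the direction of 1417714_x_at. No direction is therefore given for alpha globin RNA as a whole in heart.

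**Figure D3:**
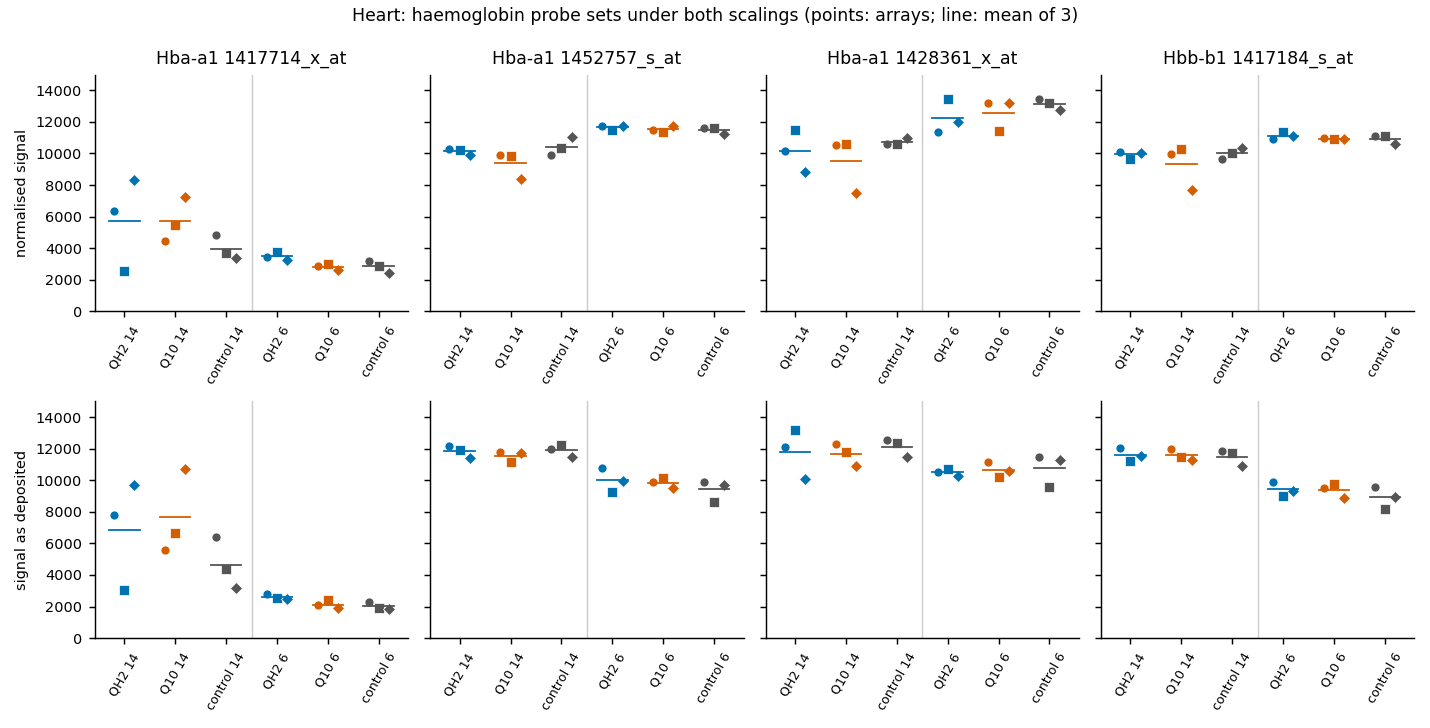
Signals of 3 Hba-a1 probe sets and the Hbb-b1 probe set on the 18 heart arrays, normalised (top) and as deposited (bottom), with QH2 in blue, Q10 in orange, control in grey, 14-month groups left of 6-month groups, and lines at the mean of 3 arrays. On Q10 the bright probe sets are lower after 14 than after 6 months once normalised and higher on average as deposited, while 1417714_x_at is higher in both.

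Late red cell genes changed in the same Q10 hearts: 6 of 14 tested rose and 1 fell, beside 10.6% of all probe sets called. Bpgm, which makes the red cell oxygen regulator 2,3-bisphosphoglycerate, rose by 1.47 (adjusted p = 0.0091), Car2 by 1.34 (adjusted p = 0.0119), Rsad2 by 1.46 (adjusted p = 0.0201), Isg20 by 1.30 (adjusted p = 0.036), and Ube2l6 and Slc25a39 by 1.47 and 0.38, while Ubac1 fell by 0.33. Of 11 haem synthesis genes Cpox (0.97, adjusted p = 0.00159) and Slc25a37, the mitochondrial iron importer of red cell precursors (1.56, adjusted p = 0.0235), rose and Uros fell by 0.49. Of 11 membrane genes 1 rose (Kel, a blood group protein, 2.06) and 2 fell, and none of 10 transcription factors passed. Iron handling genes rose in 5 of 18 cases, oxygen sensing genes in 3 of 10 and clearance genes in 2 of 7 (Cd163 1.19 and Hmox1 1.24, adjusted p = 0.00363). The median difference over all tested probe sets was 0.01, against 0.53 for the late red cell list. Macrophage markers (4 of 11 higher), B cell markers (3 of 5) and cell division genes (2 of 10) rose too, the B cell sum being 96.8 to 2043 after 14 months, against 68.5 to 95.9 after 6 months, and their part in the result was not tested.

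On control diet the only member called between durations in heart was the 5′ control probe set of Tfrc, at 13.3, 4.3 and 11 after 14 months, against 27.6, 28.3 and 29.4 after 6 months (-1.60 ± 0.42, adjusted p = 0.0493), beside 2.05% of all probe sets. That call was lost whichever array was left out (-1.88 to -1.17, adjusted p up to 0.211). Tfrc 1422966_a_at read 70.8, 36.3 and 68.8, against 125, 143 and 143, and just missed the threshold (-1.27, adjusted p = 0.0516). On QH2 no heart member passed by limma, with 2 of 14 under an unadjusted p of 0.05 and 2.29% of probe sets called.

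In brains, no diet difference passed after 14 months, with 1 of 30 member tests under an unadjusted 0.05. Of the 10 members tested there, Slc4a1 1416464_at passes the brightness filter only through the Q10 14-month arrays. Its mean was 21.7 over a floor of 19.1 with all 18 arrays, and 17.2 under a floor of 19.2 without them. Its tests on those arrays therefore support nothing here, and it was not called in brain. Between durations on Q10 the Hba-a1 signal (1417714_x_at) was 397, 1297 and 3435 after 14 months, against 512, 516 and 334 after 6 months. Its log2 difference of 1.44 ± 0.50 passed (adjusted p = 0.0386) although array 1 of the 14-month group lay inside the 6-month range, and 1452757_s_at differed by 0.48 ± 0.18 (adjusted p = 0.0461). Tfrc 1422966_a_at fell to 87.8, 114.5 and 64.5 after 14 months, against 199, 152 and 126 after 6 months, with no overlap (-0.84 ± 0.24, adjusted p = 0.0116). These 3 of 10 members stand beside 28.6% of all probe sets. The brightest Tfrc probe set, 1452661_at, was tested in brain and not called. Its mean brain signal was 595 over 18 arrays and 580 without the Q10 14-month arrays, so it did not share the fall of 1422966_a_at.

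The alpha globin calls of brain rest on arrays 2 and 3: without both, the differences were -0.17 and -0.053. Leaving out 1 array, 1417714_x_at lost its call without 14-month array 2 or 3 or any 6-month array (0.69 to 1.54), 1452757_s_at without 14-month array 2 or 3 or 6-month array 1 or 3 (0.28 to 0.46), and Tfrc without 14-month array 3 (-0.63) or 6-month array 1 (-0.67). On the other diets Hba-a1 read 642, 1182 and 1706.5 after 14 months on QH2, against 357.5, 589 and 464 after 6 months (1.24, adjusted p = 0.0629), and on control diet 1535, 749 and 912, against 562, 591 and 437 (0.95, adjusted p = 0.157). With all arrays every 14-month brain on these 2 diets exceeded every 6-month brain, but neither passed, and 34.9% and 32.8% of all probe sets were called. Among the lists on Q10, 3 of 10 late red cell genes rose (Rsad2 1.28), 5 of 15 iron handling genes rose, and 2 of 11 haem synthesis genes rose with 1 falling. These shares lay near the 28.6% of all probe sets called. Oxygen sensing genes rose in 5 of 10 cases, a larger share (Slc2a1, the glucose transporter of the blood-brain barrier, 1.19, and Vegfa 0.86). Endothelial markers (2 of 7) and macrophage markers (4 of 9) rose there as well, and their part was not tested.

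In kidneys the globins and Alas2 passed in no comparison. Hba-a1 read 2213, 1025 and 1255 in QH2 kidneys after 14 months, 951, 1188 and 1645 in Q10 kidneys and 2013, 1655 and 1549 in control kidneys, with overlapping groups. The calls made in kidney were of Klf1, Tfrc and Slc4a1, in shares near those of all probe sets. Klf1 read 56.9, 46.6 and 42.1 in QH2 kidneys, against 24.8, 26.3 and 26.4 in Q10 kidneys after 14 months (0.88 ± 0.21, adjusted p = 0.0192), 1 of 12 members beside 6.04% of probe sets. The call was lost without QH2 array 1 (0.76, adjusted p = 0.0829) or Q10 array 2 (0.89, adjusted p = 0.0572). Control kidneys stood between, at 28.3, 39.2 and 37.0.

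Between durations on Q10, Klf1 fell to 24.8, 26.3 and 26.4 after 14 months, against 71.4, 58.1 and 73.8 after 6 months (-1.35 ± 0.21, adjusted p = 0.00019). Tfrc 1422966_a_at fell to 31.3, 31.3 and 35.5, against 124, 75.1 and 64.1 (-1.34 ± 0.23, adjusted p = 0.000416), and the 3′ control probe set of Tfrc fell by 1.18 (adjusted p = 0.0125). The brightest Tfrc probe set, 1452661_at, read 184, 318 and 476.5 after 14 months, against 641, 539 and 321 after 6 months, with the groups overlapping, and was not called. Slc4a1 1434502_x_at rose to 529, 448 and 487, against 369, 355 and 407 (0.37 ± 0.12, adjusted p = 0.0277). These 4 of 12 members stand beside 28.2% of all probe sets. Klf1 and Tfrc 1422966_a_at kept their calls whichever array was left out, the 3′ control probe set lost it without 6-month array 1 (-0.81, adjusted p = 0.0853), and Slc4a1 lost it without 14-month array 1 or 3 or 6-month array 1 or 2 (0.31 to 0.37). In the deposited signals none of the 4 passed: Klf1 differed by -0.75 (adjusted p = 0.101) and Tfrc 1422966_a_at by -0.77 (adjusted p = 0.0932).

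On control diet Tfrc 1422966_a_at also fell in kidney, to 35.4, 48.1 and 39.3 after 14 months, against 88.9, 63.2 and 67.8 after 6 months (-0.82 ± 0.23, adjusted p = 0.0313), 1 of 12 members beside 9.38%. It was lost without array 1 or 3 of either group (-0.87 to -0.68), and the deposited difference was -0.30 (adjusted p = 0.530). On QH2, Slc4a1 1416464_at rose to 629.6, 572 and 511 after 14 months, against 443, 394 and 348 after 6 months, with no overlap (0.53 ± 0.12, adjusted p = 0.0117), 1 of 12 beside 10.2%, and was lost without 6-month array 3 (0.44, adjusted p = 0.0616). On Q10, where 28.2% of all probe sets were called between durations, 2 of 7 membrane genes fell (Aqp1, which kidney tubules also make, -1.39). Of 11 haem synthesis genes 2 fell (Uros, and Fech, which inserts iron into haem, -0.40). Late red cell genes rose in 2 and fell in 5 of 13 cases. Iron handling genes rose in 1 and fell in 5 of 18 cases. Macrophage markers (6 of 9), B cell markers (4 of 7) and cell division genes (9 of 10) rose between the same kidneys, and their part was not tested.

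Across the 44 comparisons within tissues, 32 of 528 member tests passed, in 10 comparisons: 3 of 24 between diets, 7 of 12 between durations and 0 of 8 for a change of the diet effect with duration. Of the 32 calls, 3 are those of Slc4a1 1434502_x_at in liver, fixed in direction by the filter. After 6 months 0 of 144 member tests between diets passed by limma, with 5 under an unadjusted p of 0.05. QH2 against control after 14 months gave 0 of 48, with 2 under an unadjusted 0.05. The tests of whether a diet effect at 14 months differed between tissues gave 0 of 144, with 14 under an unadjusted 0.05, so the liver result for Q10 is not shown to differ from those of the other tissues. Of the 10 comparisons with a call, 7 include the Q10 14-month arrays, so within a tissue they share samples and are not independent of one another.

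Array by array, Hba-a1 (1417714_x_at) and Alas2 moved together within each tissue. Over 18 arrays Pearson's r of the log2 signals was 0.95 in heart, 0.91 in brain, 0.89 in kidney and 0.81 in liver, and Spearman's rho 0.90, 0.85, 0.95 and 0.70. Permutation p-values adjusted over 16 relations were 5.3e-05 for r in heart, brain and kidney and 0.00012 in liver, where 1e-05 before adjustment is the smallest that 100000 permutations can give. Without the 2 arrays farthest from the median Hba-a1 signal, r was 0.92 in heart, 0.80 in brain, 0.90 in kidney and 0.59 in liver. Within the 9 arrays of 14 months it was 0.97, 0.96, 0.96 and 0.99, and within those of 6 months 0.92, 0.65, 0.95 and -0.03. For this probe set the liver relation therefore did not hold among the 6-month livers, and without the Q10 14-month arrays its r was 0.51 (n = 15). For the mean of the brightest Hba-a1 and Hbb-b1 probe sets with Alas2, liver r was 0.65 within 6 months and 0.75 without those arrays. On the deposited signals liver r within 6 months was 0.55 for 1417714_x_at and 0.20 for that mean. In kidney neither Hba-a1 nor Alas2 passed any comparison, and the 2 genes still moved together from array to array. The pairs of single genes among the 16 relations were added after the data had been seen.

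**Figure D4:**
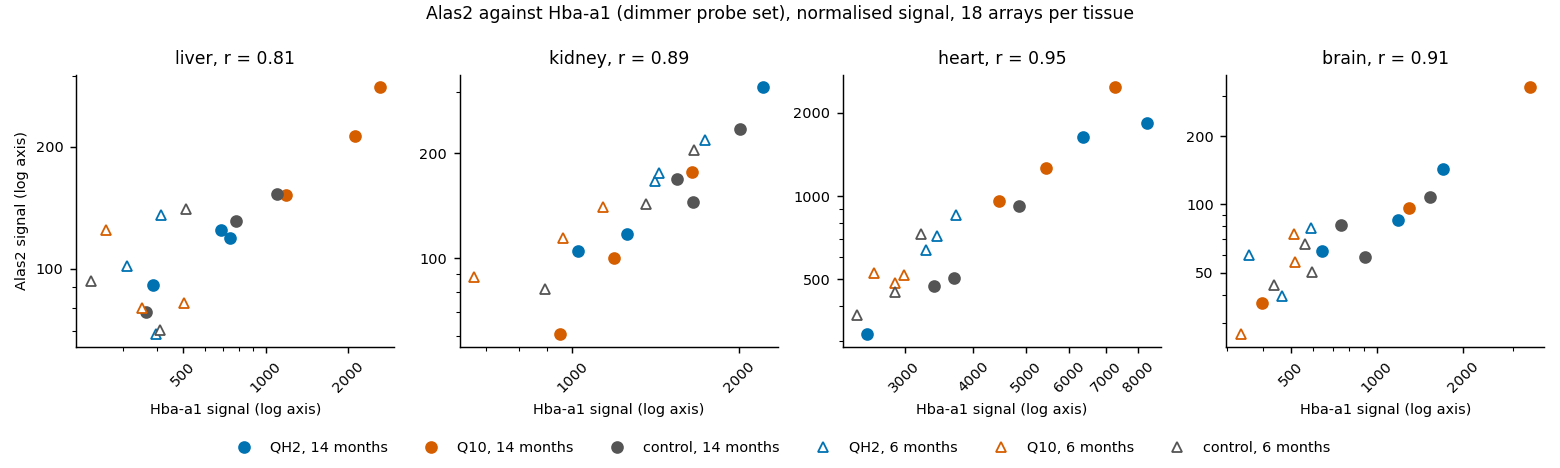
Alas2 signal against Hba-a1 (1417714_x_at) signal on each array, both on log axes, 1 panel per tissue, with QH2 in blue, Q10 in orange and control in grey. The points follow a rising line in kidney, heart and brain, and in liver the rise rests on the 14-month arrays.

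Alas2 and Slc4a1 also moved together in heart (r = 0.83, rho = 0.80, adjusted p = 0.00013) and liver (r = 0.63, rho = 0.54, adjusted p = 0.0098). Without the 2 farthest arrays r was 0.84 in heart and 0.41 in liver, and within 6 months 0.43 and -0.28. The liver relation was lost around the 6 group means (r = 0.08, adjusted p = 0.81) and without the Q10 14-month arrays (r = 0.03, adjusted p = 0.91). In kidney (r = 0.31) and brain (r = 0.36) the relation did not pass. The mean of the brightest Hba-a1 and Hbb-b1 probe sets followed Alas2 in liver (r = 0.84), kidney (0.76) and brain (0.92) but ran against it in heart (-0.69, permutation p adjusted over 32 relations 0.0054), where the dimmer alpha globin probe set in its place gave 0.93 and the deposited signals 0.55. Klf1, Epb4.2 and Tfrc did not pass with the haemoglobin mean in any tissue after normalisation. On the deposited signals Tfrc passed in brain (r = 0.80, adjusted p = 0.00032) and heart (0.64, adjusted p = 0.014) and Epb4.2 in brain (0.67, adjusted p = 0.0096).

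Among all other tested genes, those most like Alas2 over the 18 heart arrays were Mkrn1 (r = 0.96), Tent5c (0.96), Hbb-b2 (0.95), Isg20 (0.95) and Fech (0.94). In brain they were Hbb-b2 (0.93), Rsad2 (0.89), Fech (0.88), Tent5c (0.84) and Ctnna1 (0.79), so that Hbb-b2, Fech and Tent5c stood among the first 5 in both tissues. In liver they were Lrp10 (0.90), Coro7 (0.88), Ctsz, Irf1 and Lmo2, and in kidney Hpx (0.78), which binds free haem in plasma, came first. Klf1 in kidney was most like Mzt2 (0.94), Tmem203 (0.93) and Mrpl27 (0.91). Fech read 2107, 2242 and 3603 in Q10 hearts after 14 months, 2047, 1719 and 1724 in control hearts of that duration, and 1734, 1807 and 1888 in Q10 hearts after 6 months, with Q10 array 3 far above the rest.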

How the data were processed

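Each of 72 samples was measured on 1 array. The deposited values are linear signal intensities, 1 per probe set and array, which the authors computed with GCOS according to the submitters' processing notes (version not given in the sources used here). They have no common level between arrays, so array totals differ, and 102 of them are exactly 0. The number of arrays limits the precision. No column was left unused. Gene symbols come from the platform annotation (34958 probe sets with 1 symbol, 932 with several, 9211 with none). The 7 genes and all gene lists were chosen with earlier results of these data known.

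Within each tissue, intensities were quantile normalised, leaving out 61 of 64 control probe sets (the 3 of Tfrc were kept), an offset of 1 was added, and log2 values were taken. A log2 fold change is therefore on the log2(signal + 1) scale and understates changes of dim probe sets. Probe sets with a mean over the 18 arrays above the 40th percentile were tested (27024 in a tissue, 27022 in kidney) with limma 3.58.1 in R 4.3.3: 1 mean for each of 6 groups, eBayes with intensity trend, Benjamini-Hochberg adjustment over all tested probe sets, called under 0.05, 11 comparisons per tissue. Tissues were compared on all 72 arrays normalised together (6 pairs, and 12 differences of the diet effect at 14 months). Correlations used 100000 two-sided permutations, adjusted over 32 relations, and over 16 for pairs of single genes added later. Python 3.11.15, numpy 2.4.6, pandas 2.3.3 and matplotlib 3.10.9 were used for the tables and plots. Alternatives were another scaling, offset, filter and variance model, a replicate block, the Actb ratio, only the groups compared, and leaving out each array.

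By rule the text names the members, called or not. Of each of 19 gene lists it names called genes, at most 6 by smallest p, or else up to 2, from the brightest tested probe set. For likeness it names up to 5 genes with the highest Pearson r over the 18 arrays. Same-numbered arrays of different groups or tissues deviated together little on average (mean correlation at most 0.04, for liver with kidney, consensus correlation 0.02). Single pairs of arrays reached 0.258 for liver with kidney and 0.223 for kidney with heart. The numbers were not used as pairs. On simulated data with 100 probe sets changed by 2-fold and 100 by 4-fold between Q10 and control at 14 months, the same fit recovered 70 and 94 of them in brain, 36 and 71 in heart, 53 and 83 in kidney and 32 and 68 in liver.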

Additional observations from a re-analysis of the deposited data

How the results depend on the processing

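Of the 32 member calls, all 32 held with an offset of 16, 30 with quantile normalisation over all 72 arrays, 30 with a replicate block, 25 without the filter, 16 on the deposited signals, 15 without the intensity trend, 15 with the Actb ratio as covariate and 13 with only the groups compared. Over the 192 fits that left out 1 array of a called comparison, 95 kept and 97 lost the call, and 6 calls held in every such fit. Numbers of members called are given next, beside those reported. For Q10 against control and QH2 against Q10 in 14-month livers, 0 of all 27024 probe sets were called with the Actb covariate. The same held with only the groups compared, so the losses of calls there are not particular to the members. With the Actb covariate they were 0 for Q10 against control at 14 months in liver (reported 2), 0 for QH2 against Q10 there (4), 1 for 14 against 6 months on control diet (0) and 1 on Q10 (7), 3 for QH2 against Q10 in kidney (1), 3 for durations on control diet in heart (1) and 0 on Q10 in brain (3). Without the filter they were 2 for durations on control diet in kidney (1), 0 in heart (1), and 1 on Q10 in brain (3). Without the trend they were 0 (2), 1 (4) and 4 (7) for the 3 liver comparisons with calls, 1 for durations on Q10 in heart (8) and 1 in brain (3). With an offset of 16 they were 2 for durations on control diet in heart (1), and 1 for the Q10 effect of liver minus kidney and of liver minus brain (0 each). With only the groups compared they were 0, 0 and 0 for those liver comparisons, 0 for QH2 against Q10 in kidney (1), 2 for control diet in heart (1), and 3 on control diet and 3 on QH2 in brain (0 each). The replicate block, here only a shared number, gave 0 for durations on control diet in heart (1) and changed no other such count by over 1.5 times. On the deposited signals they were 4 for durations on Q10 in liver (7), 0 for QH2 against Q10 (1), durations on control diet (1) and on Q10 (4) in kidney, 3 for Q10 against control (0), 3 for durations on control diet (1) and 6 on QH2 (0) in heart, 2 on control diet (0), 7 on Q10 (3) and 6 on QH2 (0) in brain, and 1 for the Q10 effect of liver minus kidney (0). Without Q10 14-month arrays 2 and 3, chosen after seeing the data, they were 0 in each of the 3 liver comparisons, 0 in heart (8) and 0 in brain (3). Calls that changed sign were Hba-a1 between durations on Q10, at 0.13 and 0.23 in heart on the deposited signals, and at -0.17 and -0.053 in brain without those arrays. Correlations past the threshold on the deposited signals numbered 4 in liver, 4 in kidney and 4 in brain (2 each), and for single genes 4 in kidney (1) and 2 in brain (1). From deviations around group means they were 1 in kidney (2), 1 in heart (3) and 0 for single genes in liver (3), and without the Q10 14-month arrays again 1, 1 and 0. Leaving out 1 array, members called ranged from 0 to 5, 0 to 7 and 2 to 8 for the 3 liver comparisons, 0 to 1 for durations on control diet and for the change of the Q10 effect in liver, 0 to 2 for QH2 against Q10, 0 to 1 on control diet, 2 to 5 on Q10 and 0 to 1 on QH2 in kidney, 0 to 2 for Q10 against control, 0 to 3 for QH2 against Q10, 2 to 8 on Q10 and 0 to 2 on QH2 in heart, and 0 to 6 on Q10 and 0 to 2 on QH2 in brain. The cause of these changes was not tested. Dim members such as Epb4.2, Klf1 in brain and the Tfrc control probe sets are limited by signal over background.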

Other observations

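The labels do not say whether same-numbered arrays of different tissues come from 1 mouse. Over 18 such pairs, deviations of the haemoglobin mean from its group means gave Pearson's r of -0.58 for kidney with heart and 0.48 for kidney with brain, and no tissue pair passed (permutation test, adjusted p = 0.63 for each of 6 pairs). For Alas2, chosen after the data had been seen, r was 0.60 for liver with brain (rho = 0.61, permutation p = 0.017, adjusted p = 0.10) and 0.68 for kidney with heart (rho = 0.69, permutation p = 0.055, adjusted p = 0.16). Without the 2 farthest arrays these were 0.64 and 0.57, and without the Q10 14-month arrays 0.49 and 0.61.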
